A study of Mus musculus with 37 samples.

Results

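The effect of Zscan4 RNA given to the oocyte on the transcriptome of the 2-cell embryo was examined in 7 of the 37 libraries of the series, of which 31 are RNA-seq libraries. Of these 7 libraries, 3 carry the label of Zscan4 overexpression (Zscan4 OE, replicates A to C) and 4 the label of GFP control (replicates A to D), and they were chosen by these labels, not by a measured value. All came from the C57BL/6 strain, and no knockout allele is named for either group. Per the methods, in vitro transcribed Zscan4d or GFP RNA was microinjected into wild-type oocytes at the germinal vesicle (GV) stage. The oocytes then matured in vitro, and those at metaphase II were activated without sperm, so that the 2-cell embryos of both groups were parthenogenetic and had only a maternal genome. The other libraries of the series came from oocytes and embryos lacking Hira or Cabin1, subunits of a histone H3.3 chaperone complex, and from their heterozygous controls. According to the methods, 10 oocytes were pooled for each library and their cDNA amplified with a Smart-seq2 v4 kit. The protocol in the sample records speaks of individual cells instead, and the number of 2-cell embryos per library is not given. No uninjected embryos were in this comparison, and no source says that the replicates came from separate females or injection sessions, so p-values measure only the spread between these libraries. In pools of whole embryos, fewer cells that express a gene and less of its RNA in each cell cannot be told apart.

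Zscan4 is a family of SCAN-domain zinc finger genes that lie next to each other on mouse chromosome 7 and are transcribed in a burst at the 2-cell stage, when the embryonic genome is switched on and maternal RNAs are being degraded. They belong to a group of 2-cell-stage genes, many of them in multicopy families, that follows the homeodomain factor Dux and includes genes of the Eif1a-like, Tdpoz, Trim43, Obox, Pramel and Usp17-like families. The same group marks the rare 2-cell-like state of embryonic stem cells, in which Zscan4 has been tied to telomere maintenance.

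The values were FPKM (fragments scaled to gene length and library depth) calculated over the whole span of each gene, introns included, from 9884523 to 21866674 reads on genes per library, so that 1 read on a gene of 1 kb was worth 0.0300 to 0.0687 FPKM. Levels of different genes are therefore comparable only per span. Of the 15855 genes in the table, 4293 averaged 1 FPKM or more across the 7 libraries and were tested. The library labelled Zscan4 OE B stood apart. On log2(FPKM + 1), it correlated with the GFP libraries at r = 0.887 to 0.909 over the genes tested, against 0.948 to 0.969 for the Zscan4 OE A and C libraries and 0.969 to 0.981 among GFP libraries, and its FPKM summed to 112832. The sum was 140635 in A and 134799 in C, so that all 3 libraries labelled Zscan4 OE lay below the GFP libraries (147105 to 157948, two-sided exact permutation p = 0.0571), and the part of this shift in the decreases was not tested. These r are descriptions, over genes that are not independent and libraries that share a table. Of the stage markers, the oocyte gene Zp2 (3.8 to 6.55 FPKM in the 7 libraries) and the 2-cell gene Zfp352 (12.8 to 29.3 FPKM) were both detected. These 2 genes alone do not settle the stage of each library, which was not tested. Of 14 cumulus and granulosa cell markers, 5 were in the table, with a sum of 0.260 to 0.381 FPKM in GFP and 0.277 to 0.325 FPKM in libraries labelled Zscan4 OE. None of the 7 Y-linked markers was in the table, and 10 of 24 paternally expressed imprinted genes summed to 1.58 to 2.41 FPKM in GFP and 2.15 to 3.04 FPKM in libraries labelled Zscan4 OE. Of 7 sperm markers, 2 were in the table, and 1 of them, Prm2, had 1.28 to 2.04 FPKM across the 7 libraries. The source of this Prm2 signal was not tested. Of 6 blastocyst markers, 4 were in the table, with a sum of 0.541 to 1.59 FPKM in GFP and 0.685 to 1.80 FPKM in libraries labelled Zscan4 OE.

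Zscan4d, the injected gene, was not higher in the libraries labelled Zscan4 OE. Zscan4d (chr7:11161374-11166159, minus strand of GRCm38) had 69.4, 134, 116 and 149 FPKM in GFP A to D, and 83.7, 84.3 and 70.3 FPKM in Zscan4 OE A to C. All 3 libraries labelled Zscan4 OE lay inside the range of the GFP libraries (log2 difference -0.50, standard error 0.26, adjusted p = 0.308 from limma, with a two-sided exact permutation p of 0.229 on the FPKM). The level of Zscan4d at the 2-cell stage thus does not bear out the label. Its share of the family sum was higher in these libraries than in GFP (18.1 to 57.8% against 12.1 to 16.5%). Whether injected RNA remained was not tested. The study also measured Zscan4 RNA and protein after injection by other assays and reported both as higher than in the uninjected group. Those assays are not analysed here. Injected oocytes before the 2-cell stage are not among these libraries, so whether Zscan4d RNA was higher earlier was not tested. Every direction given here is that of the libraries labelled Zscan4 OE against those labelled GFP.

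The other members of the Zscan4 family, none of which was injected, had lower levels in the libraries labelled Zscan4 OE. None passed the test, and Zscan4 OE B lay much below the other 2. Zscan4c (chr7:11005745-11010547, plus strand) had 101, 163, 160 and 184 FPKM in GFP A to D and 116, 7.93 and 65.4 FPKM in Zscan4 OE A to C (log2 difference -1.86, adjusted p = 0.221 from limma), so that Zscan4 OE A was within the GFP range and B was not. Zscan4f (chr7:11397915-11402318, plus strand) had 159, 258, 262 and 247 FPKM in GFP and 119, 23.8 and 133 FPKM in Zscan4 OE A to C (log2 difference -1.63, adjusted p = 0.149 from limma). Its groups did not overlap. Zscan4a, given as a pseudogene by the annotation (67.2, 53.3, 81.5 and 70.5 FPKM in GFP; 30.2, 3.30 and 9.70 FPKM in Zscan4 OE), had a log2 difference of -2.60 with an adjusted p of 0.0568 from limma, and Zscan4-ps3, given as protein-coding despite its name, one of -1.82 (adjusted p = 0.0534). All 9 family members tested had a lower mean in libraries labelled Zscan4 OE, 6 of them without overlap (a pattern of 10.5% of all genes tested), and 0 were called by limma (1.42% of all genes tested were called down), although 7 had an unadjusted p under 0.05. The median log2 difference of the 9 was -1.63, and it was -0.85 without Zscan4 OE B.

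Summed over the family, the Zscan4 level was 572, 835, 959 and 899 FPKM in GFP A to D (816 ± 170, SD, n = 4) and 463, 146 and 378 FPKM in Zscan4 OE A to C (329 ± 164, SD, n = 3). The groups did not overlap, and the two-sided exact permutation p of 0.0571 is the smallest that 3 libraries against 4 allow. Zscan4d made up 12.1 to 16.5% of the family sum in GFP libraries, and 18.1, 57.8 and 18.6% in Zscan4 OE A, B and C (exact permutation p = 0.0571). In Zscan4 OE B the level of Zscan4d was 10.6 times that of Zscan4c, against 0.686 to 0.822 times in the GFP libraries, 0.720 times in A and 1.07 times in C (exact permutation p = 0.229). The members share sequence: 29.6% of the 100-base windows of the Zscan4d transcript also occur in another family member, as do 72.8% for Zscan4c and 89.5% for Zscan4f, so reads may have been divided between them.

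**Figure D1:**
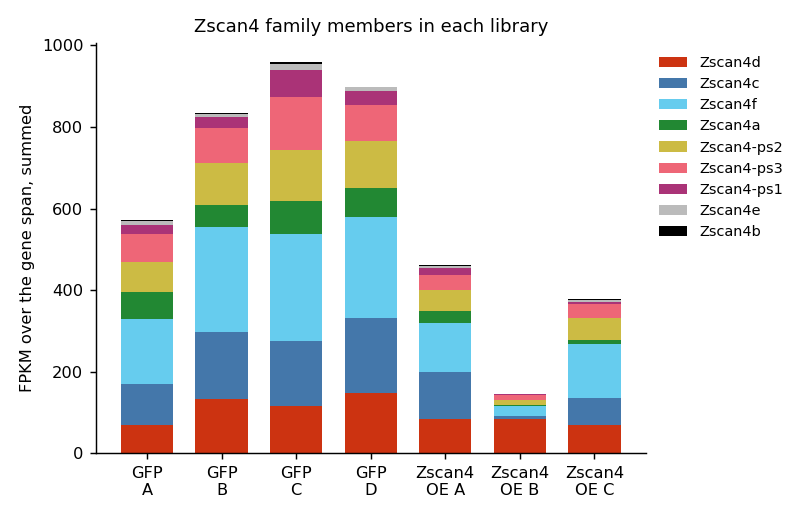
FPKM of the Zscan4 family members, stacked, in each of the 4 GFP libraries and the 3 libraries labelled Zscan4 OE, 1 bar per library. Zscan4d lies in the same range in both groups, whereas the family sum is 572 to 959 FPKM in GFP and 146 to 463 FPKM in the libraries labelled Zscan4 OE.

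Across all genes, the differences that passed the test were almost all decreases. A gene was called at a Benjamini-Hochberg adjusted p under 0.05 from limma and a fold above 2 on the log2(FPKM + 1) scale, which understates the change of genes with low values. In the libraries labelled Zscan4 OE, 61 genes were down, 1.42% of the genes tested, and 1 gene was up, 0.0233% of them. At an unadjusted p under 0.05, 488 genes were lower and 362 higher, and over all genes tested 1981 had a lower and 2312 a higher mean (median log2 difference 0.03). All 61 genes called down had their 3 Zscan4 OE values below their 4 GFP values. That holds for 450 of the genes tested (10.5%), and for 331 (7.71%) the 3 Zscan4 OE values were above the 4 GFP values. Of these, 141 below and 8 above differed more than 2-fold. The balance between higher and lower genes depended on the scaling of the libraries: with each library shifted to the same median, 557 genes lay above and 328 below without overlap.

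**Figure D2:**
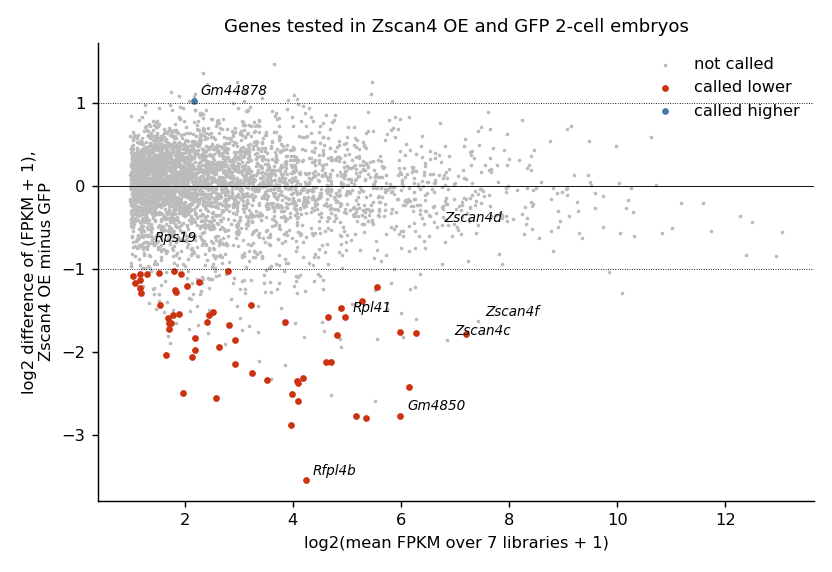
Log2 difference (Zscan4 OE-labelled minus GFP, from log2(FPKM + 1)) against mean level for the 4293 genes tested, 1 point per gene, with called genes marked. The 61 genes called down reach a log2 difference of -3.54, and 1 gene was called up.

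Whether a change was shared by the 3 libraries labelled Zscan4 OE was read from each library apart. For 25 genes, every library labelled Zscan4 OE lay more than 1 log2 unit below the lowest GFP library, and all 25 are among the genes called down. In the other direction 0 genes met this criterion in all 3 libraries. The median of the 61 genes called down, measured from the GFP mean, was -1.59 log2 units in Zscan4 OE A, -2.15 in B and -1.34 in C. These genes were called from the same libraries and did not overlap, so a negative median in each was given by the selection. The median was lowest in B. Without Zscan4 OE B, 27 genes were called down, all of them among the 61. Of the 61, 58 stayed more than 2-fold lower on the log2 scale. All 61 kept a lower mean, which had to follow because their groups did not overlap. The count called down was 38 without Zscan4 OE A and 99 without C. It was 18, 19, 32 and 48 without GFP A, B, C and D, in that order. The count called up was 10 without Zscan4 OE A and 0 without Zscan4 OE B or GFP A, C or D, and it stayed at 1 without Zscan4 OE C or GFP B.

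Changes confined to a single library were mostly those of Zscan4 OE B. A gene was counted as driven by 1 library when that library lay more than 1 log2 unit outside the GFP range and the other 2 lay inside it. This held for 40 genes (0.932% of those tested), of which 38 were driven by B (31 lower and 7 higher), 1 by A and 1 by C. None of the 40 was called. When each library was set against the range of the other 6, B was more than 1 log2 unit below them for 123 genes and above them for 21, and no other library exceeded 6 genes in either direction. Of the genes that were more than 1 log2 unit below the GFP range in any library labelled Zscan4 OE, 198 were so in B alone, 38 in A and B, and 25 in all 3. Above the GFP range, 77 genes were so in B alone, 13 in C alone and 4 in B and C.

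**Figure D3:**
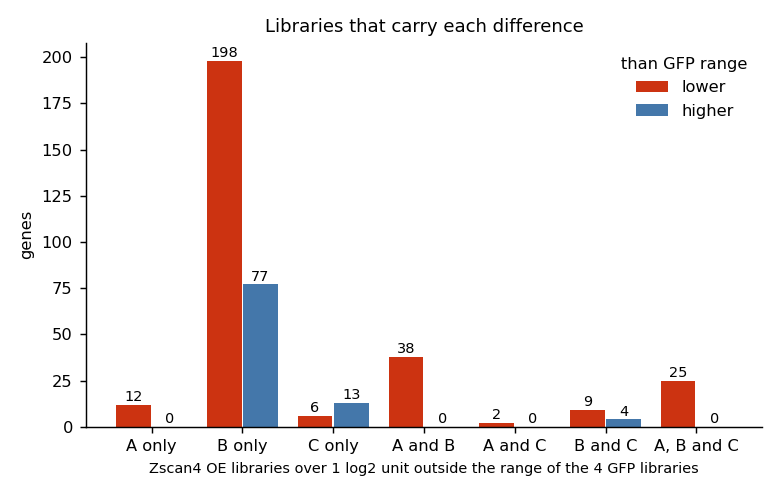
Number of genes more than 1 log2 unit outside the range of the 4 GFP libraries (log2(FPKM + 1)), split by which of the libraries labelled Zscan4 OE were outside it and by direction. Genes outside in B alone form the largest class on both sides (198 lower, 77 higher), and 25 genes were lower in all 3 libraries.

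Rfpl4b, which encodes a RING finger protein of the ret finger protein-like family, had the largest log2 decrease of the genes tested. Rfpl4b (chr10:38820541-38821779, minus strand) had 24.6, 26.8, 37.8 and 31.2 FPKM in GFP A to D, from 1017, 508, 732 and 575 reads. In Zscan4 OE A to C it had 1.41, 1.13 and 2.55 FPKM, from 35, 29 and 46 reads. The groups were far apart, 17.7-fold lower by the ratio of means (log2 difference -3.54 on the log2(FPKM + 1) scale, standard error 0.22, adjusted p = 0.000323 from limma), and the adjusted p stayed under 0.05 in all 16 alternatives. Rfpl4, a related gene of the oocyte named for comparison after its values were seen, had 590 to 730 FPKM in GFP and 714 to 779 FPKM in libraries labelled Zscan4 OE, and was not called (log2 difference 0.13, adjusted p = 0.637 from limma).

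Spic and Pramel4 followed among protein-coding genes with low levels. They were singled out after their values had been seen. Spic, an ETS-family transcription factor, had 5.99, 6.97, 4.90 and 4.25 FPKM in GFP A to D and 0.390, 0.557 and 0.677 FPKM in Zscan4 OE A to C (log2 difference -2.07, adjusted p = 0.00151 from limma). Pramel4, a member of the leucine-rich PRAME-like family, had 3.08, 3.53, 4.16 and 3.92 FPKM in GFP and 0.0931, 0.261 and 0.0536 FPKM in the libraries labelled Zscan4 OE (log2 difference -2.04, adjusted p = 0.000529 from limma). In both genes the 2 groups were separated by several fold. The homeobox gene Hesx1 also fell, from 1.24 to 2.72 FPKM in GFP to 0.104 to 0.391 FPKM (log2 difference -1.09, adjusted p = 0.0417 from limma).

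Promoter sequence was read from RefSeq for the genes called down, as the 250 bases before the annotated start site in GRCm38.p6. The 4 genes shown were chosen for the size of their fall or for their families, not by size alone: Rfpl4b (chr10:38821780-38822029, minus strand), Tdpoz1 (chr3:93676284-93676533, minus strand), Pramel4 (chr4:144058875-144059124, plus strand) and Gm16381 (chr12:87648984-87649233, minus strand). Capitals mark GGATTA or its reverse complement TAATCC, and all lines run 5′ to 3′ toward the start site.
Rfpl4b: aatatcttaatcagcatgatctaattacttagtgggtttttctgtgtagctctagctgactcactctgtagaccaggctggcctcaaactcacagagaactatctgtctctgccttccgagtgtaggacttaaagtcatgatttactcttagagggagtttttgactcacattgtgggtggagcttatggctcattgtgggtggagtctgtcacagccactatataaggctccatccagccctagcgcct
Tdpoz1: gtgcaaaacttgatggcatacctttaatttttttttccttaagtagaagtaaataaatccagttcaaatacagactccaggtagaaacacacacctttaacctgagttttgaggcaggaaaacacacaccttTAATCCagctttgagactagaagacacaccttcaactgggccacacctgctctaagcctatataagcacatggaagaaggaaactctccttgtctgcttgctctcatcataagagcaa
Pramel4: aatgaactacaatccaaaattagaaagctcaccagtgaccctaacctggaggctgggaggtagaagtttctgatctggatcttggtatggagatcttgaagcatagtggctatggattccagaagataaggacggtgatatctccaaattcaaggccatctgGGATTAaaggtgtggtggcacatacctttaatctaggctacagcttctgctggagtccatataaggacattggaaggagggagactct
Gm16381: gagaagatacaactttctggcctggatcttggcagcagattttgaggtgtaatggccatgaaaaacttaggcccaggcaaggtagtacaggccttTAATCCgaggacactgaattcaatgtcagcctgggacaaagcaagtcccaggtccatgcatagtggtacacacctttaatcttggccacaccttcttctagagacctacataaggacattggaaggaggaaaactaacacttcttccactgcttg
Such a promoter was available for 21 of the 61 genes called down and for 2469 of the genes tested. GGATTA, which is the core bound by bicoid-type homeodomain proteins such as Otx2, or TAATCC occurred in 6 of the 21 (28.6%), among them Tdpoz1, Pramel4 and Gm16381, in 6.32% of the promoters of genes tested and in 6.38% of all promoters. TATAAA, the core of a TATA box, searched on both strands, was in 1 of the 21 (4.76%), in 8.63% of the promoters of genes tested and in 13.0% of all promoters. TGCACAC, a word described for Zscan4 binding and searched on both strands, was in 1 of the 21 (4.76%) and in 3.24% of the promoters of genes tested and 3.49% of all promoters. The words were counted separately, whether or not they overlapped. Some of the 21 promoters belong to copies of 1 family, a word match is no evidence of a bound site, and Rfpl4b holds none of the 3 words in this window. The 4 shown do not stand for the 21. Spic (log2 difference -2.07) and Trim43a (-1.55) fell more than Tdpoz1 (-1.43), hold none of the 3 words and are not shown.

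Eif1a-like 2-cell genes, copies of the translation initiation factor Eif1a most of which lie on chromosome 12, had lower levels as a group. All 11 tested had a lower mean in libraries labelled Zscan4 OE, 7 without overlap (63.6%, against 10.5% of all genes tested), and 1, Gm2016, fell by the test (9.09%, against 1.42%). Their median log2 difference was -1.17, against 0.03 over all genes tested, and it was -0.57 in A, -2.20 in B and -0.70 in C. Without Zscan4 OE B it was -0.69. Gm2016 (chr12:87874072-87877859, plus strand) had 38.8, 29.8, 38.2 and 32.2 FPKM in GFP A to D and 5.01, 4.37 and 16 FPKM in Zscan4 OE A to C (log2 difference -2.12, adjusted p = 0.0286 from limma). Gm5039 had 59.6 to 75.1 FPKM in GFP and 46.6, 7.97 and 35.5 FPKM in Zscan4 OE A to C (log2 difference -1.49, adjusted p = 0.150). Gm2001 and Gm16381, neighbours of Gm2016 that are not on the list, fell further. Gm2001 had 71.6, 68.1, 61.3 and 48.6 FPKM in GFP and 5.22, 4.56 and 20.4 FPKM in Zscan4 OE A to C (log2 difference -2.79, adjusted p = 0.0215). Gm16381 had 54.9, 68.1, 55.1 and 42.2 FPKM in GFP and 5.22, 4.56 and 14.2 FPKM in Zscan4 OE A to C (log2 difference -2.78, adjusted p = 0.00895). The values of the 2 genes are equal in 3 libraries, so their reads may have been shared between copies and they are not separate evidence.

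The other 2-cell-stage genes followed the same direction. Of 38 tested, 33 had a lower mean in libraries labelled Zscan4 OE, 20 of them without overlap (52.6%, against 10.5% of all genes tested), and 5 fell by the test (13.2%, against 1.42%): Rfpl4b, Gm4850, Tdpoz1, Trim43a and Trim43b. Their median log2 difference was -0.82 (A -0.41, B -1.37, C -0.40), and -0.50 without B. Gm4850 (chr1:31267326-31267884, plus strand), a processed pseudogene in the annotation, had 90.8, 118, 76.7 and 109 FPKM in GFP A to D and 12.2, 13.1 and 15.2 FPKM in Zscan4 OE A to C (log2 difference -2.77, adjusted p = 0.000323 from limma). Trim43b, a tripartite-motif gene, had 10.3, 11.2, 7.74 and 11.1 FPKM in GFP and 2.04, 1.09 and 3.34 FPKM in the libraries labelled Zscan4 OE (log2 difference -1.86, adjusted p = 0.0115), and its neighbour Trim43a fell as well (log2 difference -1.55, adjusted p = 0.0306). Tdpoz1, a speckle-type POZ family gene, had 2.59 to 3.55 FPKM in GFP and 0.229 to 0.686 FPKM in libraries labelled Zscan4 OE (log2 difference -1.43, adjusted p = 0.00895). Tdpoz5 had 16.2 to 29.8 FPKM in GFP and 2.75 to 11.5 FPKM in the libraries labelled Zscan4 OE, without overlap (log2 difference -1.83, adjusted p = 0.0579). The homeobox gene Obox8, which is not on the list and was named after its values were seen, fell from 4.88 to 11.2 FPKM in GFP to 0.956 to 1.52 FPKM (log2 difference -1.94, adjusted p = 0.0154). Other members were closer to GFP. Zfp352 had 18.5 to 29.3 FPKM in GFP and 12.8 to 21.7 FPKM in libraries labelled Zscan4 OE (log2 difference -0.38, adjusted p = 0.379), and Usp17lc was at log2 difference -0.19 (adjusted p = 0.674). Duxf3, which encodes Dux itself, had 1.12, 0.634, 1.74 and 0.932 FPKM in GFP A to D and 1.45, 3.29 and 1.96 FPKM in Zscan4 OE A to C (log2 difference 0.60, adjusted p = 0.221), a higher mean with overlapping groups.

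**Figure D4:**
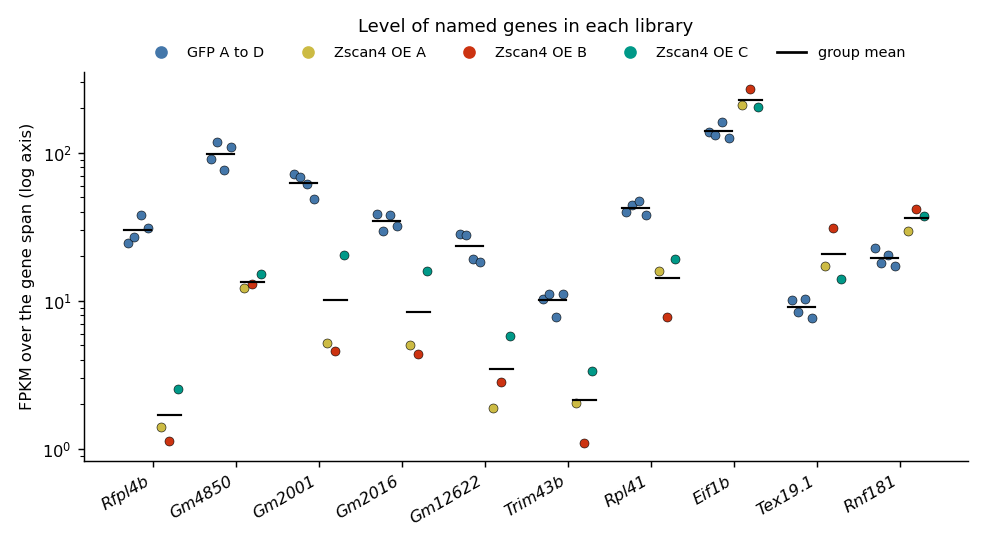
FPKM (log axis) of 10 genes in the 4 GFP libraries and the 3 libraries labelled Zscan4 OE, 1 point per library. Rfpl4b has 24.6 to 37.8 FPKM in GFP and 1.13 to 2.55 FPKM in the libraries labelled Zscan4 OE, and Eif1b has 126 to 162 and 205 to 268 FPKM.

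Many of the genes called down lie close to another. Of the 61, 28 (45.9%) have another called gene within 500 kb, in 9 clusters, against 5.59% of all genes tested that have a called gene so near, and 37 (60.7%) have a Gm number in place of a name, against 23.8% of the genes tested. The annotation gives 25 of the 61 (41.0%) as pseudogenes, against 20.3% of the genes tested, and 30 (49.2%) as protein-coding, against 70.6%. Their median span was 1.60 kb, against 6.06 kb over all genes tested. Each cluster was drawn from its first to its last called gene, which by itself raises the share of called genes within it. The cluster of chromosome 1 (chr1:30977244-31275455) held 5 called genes of 6 tested, among them Gm4850, Gm28645 and Gm9458. Gm28645 had 84.2 to 130 FPKM in GFP and 24.0, 8.82 and 30.8 FPKM in Zscan4 OE A to C (log2 difference -2.43, adjusted p = 0.0215 from limma), and Gm9458 18.7 to 28.2 FPKM in GFP and 8.67, 3.19 and 1.89 FPKM (log2 difference -2.38, adjusted p = 0.0216). The cluster of chromosome 11 (chr11:60560924-60667065) held 5 of 7, all 7 with a lower mean. There Gm12625 (log2 difference -2.89, adjusted p = 0.0244), Gm12621 (-2.59, 0.0462), Gm12624 (-2.55, 0.00828) and Gm12622 (-2.51, 0.00895) are listed as pseudogenes. In the Tdpoz cluster of chromosome 3 (chr3:93669333-94266784) 4 of 17 were called and all 17 had a lower mean, and in the Obox cluster of chromosome 7 (chr7:14331436-15295548) 3 of 9 were called and 8 of 9 had a lower mean. Reads of such copies cannot be assigned with certainty, so the genes of a cluster do not count as independent decreases.

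Within the lists of protein synthesis, splicing and energy metabolism, no more than 1 gene each was called. The 72 cytosolic ribosomal protein genes had a median log2 difference of -0.35 (A -0.16, B -0.72, C -0.08), with 60 lower and 12 higher, against 0.03 over all genes tested. Of these genes, 18 lay below the GFP libraries without overlap (25.0%, against 10.5%) and 1 was called down (1.39%, near the 1.42% of all genes tested). Without Zscan4 OE B their median was -0.12. Rpl41, which encodes a ribosomal protein of the large subunit, had 40.0, 44.4, 47.2 and 38.2 FPKM in GFP A to D and 15.9, 7.77 and 19.2 FPKM in Zscan4 OE A to C (log2 difference -1.59, standard error 0.27, adjusted p = 0.0277 from limma). Rps3a2, on the list but given as a processed pseudogene by the annotation, had an adjusted p of 0.0468 from limma. Its difference was under 2-fold (log2 difference -0.87), with 48.5 to 65.9 FPKM in GFP and 24.7 to 34 FPKM in the libraries labelled Zscan4 OE. Rps19, a gene of the small subunit, had 2.72, 2.39, 1.57 and 1.18 FPKM in GFP and 0.944, 0.110 and 1.43 FPKM in Zscan4 OE A to C (log2 difference -0.74, adjusted p = 0.221), so that the groups overlapped, and the log2 difference was -0.41 without Zscan4 OE B. The 49 mitochondrial ribosomal protein genes (28 higher, 21 lower, median 0.06), the 43 genes of rRNA processing (24 higher, 19 lower, median 0.02) and the 24 proteasome subunits (median 0.02) had no called gene, and each median changed its sign under some alternative.

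Splicing and respiratory chain genes each held 1 called gene. Srsf7, a serine/arginine-rich splicing factor, had 2.48 to 4.91 FPKM in GFP and 1.13 to 1.58 FPKM in the libraries labelled Zscan4 OE (log2 difference -1.06, adjusted p = 0.0446 from limma), and it was the 1 called gene of 43 of the spliceosome (26 lower and 17 higher, median -0.16). Snrpd1, a core protein of the spliceosomal snRNPs, had an adjusted p of 0.0316 but a log2 difference of -0.95, which is below 2-fold. Cox7b, a subunit of cytochrome c oxidase, had 6.74 to 8.75 FPKM in GFP and 2.63 to 4.2 FPKM (log2 difference -1.03, adjusted p = 0.0263). It was the 1 called gene of 57 nuclear oxidative phosphorylation genes, of which 37 were lower and 20 higher (median -0.11, and 0.05 without Zscan4 OE B). The called genes outside the lists included 2 of mitochondria, chosen after their values were seen: Uqcc3, an assembly factor of complex III, from 6.89 to 12.6 FPKM in GFP to 0.895 to 3.37 FPKM (log2 difference -1.67, adjusted p = 0.0383), and Fundc1, a receptor of mitophagy, from 15.3 to 22.2 FPKM to 3.13 to 8.17 FPKM (log2 difference -1.64, adjusted p = 0.0255).

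Genes with higher levels in the libraries labelled Zscan4 OE reached smaller differences. The 1 gene that rose by the test, Gm44878 (chr7:4658660-4659954), has no established product. It had 2.16, 3.21, 1.73 and 1.5 FPKM in GFP A to D and 4.71, 5.62 and 5.51 FPKM in Zscan4 OE A to C (log2 difference 1.02, adjusted p = 0.0453 from limma). Tex19.1, a germline gene that restrains retrotransposons, had 7.63 to 10.3 FPKM in GFP and 17.2, 30.9 and 14 FPKM in Zscan4 OE A to C (log2 difference 1.04, adjusted p = 0.0885). Rnf181, a RING-type ubiquitin ligase gene, had 17.2 to 22.7 FPKM in GFP and 29.8, 41.4 and 37.3 FPKM in the libraries labelled Zscan4 OE (log2 difference 0.85, adjusted p = 0.0480), which is below 2-fold. Gm4961 had a log2 difference of 0.80 with the same adjusted p of 0.0480. The translation initiation factor gene Eif1b had 126 to 162 FPKM in GFP and 205 to 268 FPKM in the libraries labelled Zscan4 OE (log2 difference 0.70, adjusted p = 0.0776). The nucleosome-binding protein gene Hmgn1 had 18.4 to 20.1 FPKM in GFP and 28.0 to 39.2 FPKM (log2 difference 0.68, adjusted p = 0.0787). In all 6 genes the 2 groups did not overlap, a pattern met by 7.71% of the genes tested. Tex19.1, Rnf181, Gm4961 and Hmgn1 were named for the size of that gap, Eif1b for its place among translation factors.

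Maternal transcripts, which are stored in the oocyte and cleared around the 2-cell stage, had no called gene. Of the 40 oocyte-expressed genes tested, 27 were higher and 13 lower in the libraries labelled Zscan4 OE (median log2 difference 0.14), 6 above and 2 below without overlap (15.0 and 5.00%, against 7.71 and 10.5% of all genes tested). Oas1d, an oocyte member of the 2′-5′ oligoadenylate synthetase family, had 30.0 to 53.4 FPKM in GFP and 62.3, 115 and 63.5 FPKM in Zscan4 OE A to C (log2 difference 1.02, adjusted p = 0.109 from limma). Gdf9, an oocyte growth factor gene, had 10.1 to 16.3 FPKM in GFP and 17.3 to 28.2 FPKM in the libraries labelled Zscan4 OE (log2 difference 0.78, adjusted p = 0.109). In both genes the groups were apart. In the opposite direction, Oosp1 had 76.0 to 101 FPKM in GFP and 42.3 to 58.1 FPKM (log2 difference -0.78, adjusted p = 0.0691). The 14 genes of the subcortical maternal complex and Nlrp families had a median of 0.16, and the 17 maternal chromatin and imprint factors one of 0.18 with 14 higher. Leaving out 1 library moved the first between 0.023 (without Zscan4 OE C) and 0.29 (without GFP C) and the other between 0.069 (without GFP A) and 0.40 (without Zscan4 OE A). That of the 40 oocyte-expressed genes moved between 0.11 (without Zscan4 OE C) and 0.21 (without Zscan4 OE A). Among the chromatin and imprint factors, the imprint factor gene Zfp57 had 17.2 to 44.6 FPKM in GFP and 39.9, 82.4 and 60.7 FPKM in Zscan4 OE A to C (log2 difference 1.11, adjusted p = 0.149), and the groups overlapped.

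Embryonic and maternal RNA were also told apart by libraries of the series that were not injected. Genes were classed by the 4 GV oocyte and 4 2-cell libraries of CabZ Het controls, heterozygous for Cabin1 loss, as gained where the lowest 2-cell value was over 4 times the highest GV value (each value plus 1), as lost in the reverse case, and as similar otherwise. The 2 tables were normalized separately, so the classes are descriptive. The deposited values were divided by gene span 2 times and were restored to FPKM over the gene span before the classes were formed. Because 1 was added to each value, genes with low values were classed as similar even where their ratio was large (Gm21761, for example). Values over a long span tend to be low. The median span was 3.12 kb for gained, 6.88 kb for lost and 7.65 kb for similar genes. Short spans were also common among the genes called down. Of the genes tested, 4002 of the genes tested were in both tables. Of the 319 gained genes, 31 were called down in the libraries labelled Zscan4 OE (9.72%), 141 lay below GFP without overlap (44.2%) and 290 had a lower mean (90.9%). Over all 4002 genes 36 were called down (0.900%), 9.27% lay below and 8.17% above without overlap, and 1759 had a lower mean (44.0%). The median log2 difference of the gained genes was -0.59 (A -0.48, B -0.97, C -0.30), and -0.37 without Zscan4 OE B. Of the 243 lost genes, 0 were called by limma (39 higher and 1 lower at an unadjusted p under 0.05), 22 lay above (9.05%, near the 8.17% of all 4002) and 2 below GFP without overlap, and 194 had a higher mean. Their median log2 difference was 0.23 (A 0.05, B 0.31, C 0.36), and 0.20 without Zscan4 OE B. The 3440 similar genes had a median of 0.06 with 5 called down and 1 up. With a gap of 2-fold in place of 4-fold, the medians were -0.33 for 627 gained and 0.18 for 687 lost genes.

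**Figure D5:**
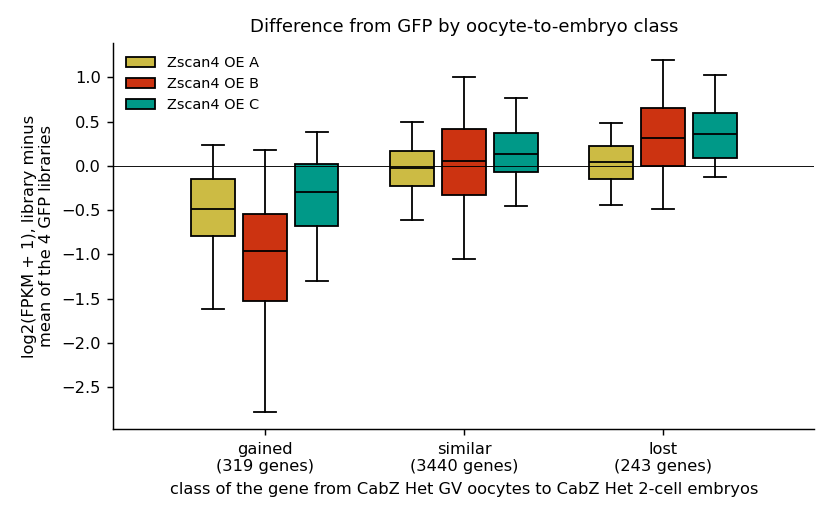
Log2 difference from the GFP mean of each library labelled Zscan4 OE, for genes gained, similar or lost between GV oocytes and 2-cell embryos of CabZ Het controls. For gained genes the medians are -0.48 in A, -0.97 in B and -0.30 in C, so library B lies farthest from 0. Over the libraries together, which are not drawn as a group, the medians are -0.59 for gained, 0.06 for similar and 0.23 for lost genes.

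Genes of the other functions examined had no member called by limma. Beside the Zscan4 family, 15 lists had no call. Those of maternal transcripts, mitochondrial ribosomes, rRNA processing and the proteasome are among these 15. Summed over the 15, 37 of 394 members tested were higher and 27 lower at an unadjusted p under 0.05 from limma. A gene on several lists was counted for each of them. At that threshold, 362 of all 4293 genes tested were higher and 488 lower. The 33 translation factors had a median of 0.05 (18 higher, 15 lower), the 54 genes of mitosis and cell division one of 0.11 (34 higher, 20 lower) and the 23 DNA repair genes one of 0.09 (15 higher, 8 lower). The replication clamp gene Pcna had 15.0 to 22.3 FPKM in GFP and 9.82 to 11.9 FPKM in the libraries labelled Zscan4 OE, without overlap (log2 difference -0.79, adjusted p = 0.0657 from limma). The medians were 0.02 for 5 telomere genes, 0.11 for 23 genes of the integrated stress response and heat shock, 0.08 for 11 genes of the p53 pathway, -0.27 for 4 RNA-sensing genes and -0.07 for 45 genes of RNA polymerases II and III, Mediator and TFIID. The 9 blastocyst and lineage genes had a median of 0.27 with 7 higher and 2 lower. Among them Klf17, a Krüppel-like factor of oocytes and early embryos, had 3.58 to 9.24 FPKM in GFP and 7.62, 34.7 and 16.1 FPKM in Zscan4 OE A to C, overlapping in A (log2 difference 1.47, adjusted p = 0.141).

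Apart from the shared decreases stood genes driven by 1 library. Of the 31 genes lower in Zscan4 OE B alone, 16 are listed as pseudogenes and 11 as protein-coding. Among the 31, 8 lie in a stretch of chromosome 5 (chr5:93936755-95605308) in which 24 genes were tested. The stretch was drawn from the first to the last of the 8. In that stretch Gm7942 had 23.2, 21.3, 27.4 and 16.7 FPKM in GFP A to D and 18.5, 2.90 and 21.3 FPKM in Zscan4 OE A to C (log2 difference -0.93, adjusted p = 0.358 from limma). Gm7647, also there, had 11.7 to 23.5 FPKM in GFP and 14.9, 2.3 and 13.4 FPKM in the libraries labelled Zscan4 OE. In both, A and C fell inside the GFP range. Without B the log2 difference was -0.13 for Gm7942 and -0.41 for Gm7647. On chromosome X, Gm8545 had 4.63 to 7.98 FPKM in GFP and 7.30, 0.241 and 5.32 FPKM, with a log2 difference of -0.86 that became -0.01 without B. Gm8300 (an Eif1a-like gene) and Cox7a2 (a cytochrome c oxidase subunit) were also driven lower by B alone. Zscan4 OE A was the only library to drive Kti12, a factor linked to Elongator, with 1.03 FPKM against 3.48 to 7.03 FPKM in GFP, 4.24 in B and 5.78 in C. Zscan4 OE C was the only library to drive Ube2s, an E2 enzyme of the anaphase-promoting complex, with 14 FPKM against 2.26 to 5.89 FPKM in GFP, 3.09 in A and 5.86 in B. What sets Zscan4 OE B apart was not tested.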

How the data were processed

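RNA was measured in 7 libraries of 2-cell embryos, grouped by the injection and letter in their sample records. After trimming with TrimGalore, the authors used STAR 2.5.3a for alignment to GRCm38 and Partek Flow for FPKM per gene. The FPKM values deposited by the authors had 0.001 added to each, which was subtracted. The steps between low values gave the reads per gene (84.9 to 88.6% of low values within 0.1 of a whole number), which show counting error only. How reads shared by several genes were counted is not given in the sources used here. The CabZ Het tables hold score values that the authors divided by gene span 2 times and scaled before they deposited them. These tables were used only for the oocyte and embryo classes, after 0.01 was subtracted and FPKM over the gene span was restored. All value columns of these tables were mapped to a sample.

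The test was that of limma 3.58.1 (R 4.3.3), applied to log2(FPKM + 1) of genes averaging 1 FPKM or more, because the authors' Partek GSA was not installed, at their thresholds. Single values were set against each other with exact permutation tests (two-sided) in Python 3.11.15 with scipy 1.17.1. The fit was run on simulated data whose noise came from the GFP libraries alone, so the wider spread of Zscan4 OE B was absent. Among genes of higher level, it called 30% of 50 changed 2-fold and 98% of 50 changed 4-fold, with 2 false calls. Members and gene lists were chosen with earlier results of these data known, and 15318 symbols were found in GENCODE M21, 14303 of them with the same coordinates. Named were Zscan4c, Zscan4d, Zscan4f and Rps19, up to 10 called or non-overlapping genes per direction with a mean of at least 5 FPKM, the 4 genes driven most by each library, up to 4 members per list with the largest difference, and stage markers. Other names are given as chosen after their values were seen. Pseudocount, filter, scaling, weights, block and leaving out each library were varied. Symbols turned into dates (17) name no gene here. Other tables, of Hira and Cabin1 oocytes and embryos and of ATAC-seq peaks, were not used here. The values of 1 gene are not reported here.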

Additional observations from a re-analysis of the deposited data

Results flagged for a closer look

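Within the GFP group, 118 sets of 4 values were examined for a sample far from the other 3 by Dixon's criterion, which chance meets in about 1 of 20 groups, and 7 were met. Zscan4f had 158.7 FPKM in GFP A, below the other GFP libraries. GFP C was apart for 4 genes, with a low value of 16.2 FPKM for Tdpoz5 and high values of 3.72 FPKM for the maternal gene Nlrp5, 5.88 FPKM for the mitotic kinase gene Aurka and 2.08 FPKM for the kinase gene Plk1. The reads on genes of GFP A (21866674) were above those of the other GFP libraries. The sum of FPKM of GFP B (157948) was also above the others. Groups of 3, such as the libraries labelled Zscan4 OE, were not examined in this way.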

How the results depend on the processing

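Whether the letters pair the libraries was not settled: deviations of same-letter libraries correlated at 0.11 (A), -0.16 (B) and 0.15 (C). GFP A was closest to Zscan4 OE A and GFP C to Zscan4 OE C, but GFP B was closest to Zscan4 OE C (0.17). Correlations this weak cannot decide the question. With a replicate block, 2 genes were called down and 0 up. Without a filter on low values, 5 were called down and 0 up, 1092 lay above and 951 below GFP without overlap, and the spliceosome median was 0.021. At a mean of at least 5 FPKM, 0 were called up, 125 lay above and 212 below, and the medians were 0.55 for blastocyst genes and -0.088 for DNA repair. Fewer genes were tested at that filter. Under median scaling, 4 were called up, 557 lay above, and the medians were 0.16 for mitochondrial ribosomal proteins, 0.15 for translation factors and 0.18 for the p53 pathway. Called up were 3 genes with quantile normalization, 0 with library weights, 4 without a fold threshold and 2 with the ratio of means. With a pseudocount of 0.1, 79 genes were driven by 1 library, and 2 at a distance of 2 log2 units. Leaving out 1 library gave 18 to 99 genes called down and 0 to 10 up, 376 to 919 above and 485 to 813 below, and -0.0096 to 0.11 for the mitochondrial ribosomal median. In every alternative but the filter at 5 FPKM, 59 to 61 of the 61 genes called down were tested and kept a lower mean. Those missing fell under the filter of 1 FPKM when a GFP library was left out, and none changed direction. At the filter of 5 FPKM, 32 were tested and all 32 were lower. Leaving out a library could not reverse genes whose groups did not overlap. Signs reversed for 3 named genes that were not called. Padi6 ranged from -0.0042 (without Zscan4 OE B) to 0.80 (without Zscan4 OE A) and Dkc1 from -0.39 (without Zscan4 OE B) to 0.041 (without Zscan4 OE C). Bst2 ranged from -0.23 to 0.028 when libraries were left out (0.028 without GFP A, 0.012 without Zscan4 OE B), and was 0.011 with median scaling and 0.052 with library weights. The cause was not tested. Of the list and class medians under alternatives, 290 moved by less than the spread between libraries and 7 by more. That spread was the SD of the medians of Zscan4 OE A, B and C, which B widens. These counts therefore say little about dependence on B. The Zscan4 family median, for example, moved from -1.63 to -0.85 without B, which was less than its spread of 1.28. Genes near 1 FPKM rest on few reads where their span is short.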
